A study of Homo sapiens with 30 samples.

Results

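Replication-dependent histone genes were followed in polyA-selected RNA of HEK293, a widely used cell line of human embryonic kidney origin. They were chosen by gene symbol: H1-1 to H1-6 and every symbol of the forms H2AC, H2BC, H3C and H4C followed by a number. The rule found 69 of the 58278 genes in the count tables, with 6 H1, 17 H2A, 18 H2B, 13 H3 and 15 H4 genes. Of these, 55 lie on chromosome 6, 13 on chromosome 1 and 1 on chromosome 12. The rule used names only and no measured value.

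The study expressed 5 mistranslation reporters, each an EGFP-mCherry fusion, with or without a tRNA meant to correct a missense codon (mc-tRNA), which is charged with another amino acid than its anticodon calls for. There were 10 groups of 3 libraries, and all cells were wild-type HEK293 that had been transfected and sorted for mCherry after 48 h. Each reporter was expressed alone or together with its mc-tRNA from the same plasmid. EGFP(R65) was paired with Ser-tRNA_Arg(CCG), EGFP(R96Q) with Arg-tRNA_Gln(CUG), EGFP(R96C) with Arg-tRNA_Cys(GCA), EGFP(R96H) with Arg-tRNA_His(GUG), and EGFP(R96W) with Arg-tRNA_Trp(CCA). Each comparison sets a reporter with its mc-tRNA against the same reporter alone and asks how that mc-tRNA affects mRNA levels. No untransfected or mCherry-negative cells were analysed here, so every group carries a reporter plasmid and passed the sort.

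Replication-dependent histone genes supply the histones that package newly made DNA. The core histones H2A, H2B, H3 and H4 form the nucleosome, and linker histone H1 binds where DNA enters and leaves it. In dividing cells most of their transcripts are not polyadenylated: they end just after a conserved stem-loop that is bound by SLBP, and they rise in S phase. A smaller share of transcripts reads past the stem-loop and ends at an ordinary polyA signal. Selection for polyA keeps mainly the second kind, so the levels here describe polyadenylated histone RNA and not the total histone mRNA of the cells.

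A match to the histone 3′ stem-loop was found in the annotated transcripts of 30 members. Another 34 are annotated by coding sequence alone, where neither a stem-loop nor a polyA signal could be found. The stem-loop is shown because it is the feature that sets the usual end of these mRNAs. Of the 69 members, 22 had a transcript with a polyA signal (AATAAA or ATTAAA) in its last 50 bases. Capitals mark the 16-base stem-loop, with 5 flanking bases on each side, as read 5′ to 3′ from GENCODE release 29 transcripts.
H2AC25: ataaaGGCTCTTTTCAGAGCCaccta
H4C8: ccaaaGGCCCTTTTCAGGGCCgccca
H2BC5: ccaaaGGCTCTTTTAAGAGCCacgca
H4C9: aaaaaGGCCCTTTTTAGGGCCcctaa
H2AC11: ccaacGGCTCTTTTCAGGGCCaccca
The H2AC25 form was shared by 17 members, all of them H2A, H2B or H3 genes, and the H4C8 form by 5 members, all H4. The H2BC5 form was found in 4 members (H2BC4, H2BC5, H2BC7 and H3C8), the H4C9 form in 3 (H4C9, H4C14 and H4C15) and the H2AC11 form in 1. In H2AC25 the annotated transcript ran on for 390 bases past the stem-loop to a polyA signal, and in H2BC5 1 of the 2 transcripts ran on for 39 bases.

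The 250 bases before the start are printed for H2BC12 and H1-2, the members with the highest levels, and for H2BC5, which had one of the largest rises, from RefSeq (GRCh38.p14), 5′ to 3′ on the gene's strand. Capitals mark 4 motifs searched on both strands, which overlap at places: ATTTGCAT (the octamer of H2B promoters), AAACACA (the H1 box), CCAAT and TATAAA.
H2BC12 (chr6:27146859-27147108, minus strand): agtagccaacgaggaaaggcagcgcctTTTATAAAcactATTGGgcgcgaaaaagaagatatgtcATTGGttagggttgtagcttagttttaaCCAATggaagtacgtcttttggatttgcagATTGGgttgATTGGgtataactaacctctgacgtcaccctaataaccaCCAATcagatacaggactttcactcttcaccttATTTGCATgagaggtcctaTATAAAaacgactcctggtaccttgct
H2BC5 (chr6:26157871-26158120, plus strand): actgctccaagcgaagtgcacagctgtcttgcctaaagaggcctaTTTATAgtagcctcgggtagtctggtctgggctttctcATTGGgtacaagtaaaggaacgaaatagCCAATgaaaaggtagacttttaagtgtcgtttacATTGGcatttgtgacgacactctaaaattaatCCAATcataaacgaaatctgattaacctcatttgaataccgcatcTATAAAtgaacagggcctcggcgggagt
H1-2 (chr6:26056471-26056720, minus strand): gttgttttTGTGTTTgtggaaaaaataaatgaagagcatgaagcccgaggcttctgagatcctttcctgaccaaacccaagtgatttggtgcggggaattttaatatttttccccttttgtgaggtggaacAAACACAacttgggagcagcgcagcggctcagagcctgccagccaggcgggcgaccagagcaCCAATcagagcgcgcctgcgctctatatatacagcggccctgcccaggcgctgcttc
RefSeq promoters were matched for 64 of the 69 members and searched over 250 bases before to 50 after the start. The octamer was in 14 of 18 H2B and 11 of 16 H2A promoters, in 0 of 13 H4 promoters and in 1.77% of all 35116 promoters of that length. AAACACA was in 6 of 6 H1 promoters and in 5.64% of all, CCAAT in 54 of the 64 and in 34.6% of all, and TATAAA in 42 of the 64 and in 11.5% of all. H2BC12 held the octamer and H2BC5 did not. A match is a description of these letters and not a site.

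Of the 69 members, 65 had at least 1 count and 4 (H2AC1, H2BC1, H2BC10 and H3C4) had none in any of the 30 libraries, which allows at most 0.0541 to 0.0769 CPM (the level of 3 counts) depending on the library. A filter on low counts left 45 to be tested: 4 H1, 8 H2A, 13 H2B, 8 H3 and 12 H4 genes. The other 20 with counts had 3 to 95 counts each over all 30 libraries. Levels are given as CPM (read counts relative to the library's size), scaled to the library total and its TMM factor, as means ± SD of 3 libraries. Because a gene can pass the filter through the group in which it is high, counts over the 45 are followed by counts over the 21 members whose mean over all 30 libraries was at least 1 CPM. Such a mean can be reached through high groups too, so the 21 are not free of this limit. H3C11 had 2317 counts in the EGFP(R65) libraries and 4 in the EGFP(R96) libraries. H4C9 had means of 1.65 and 0.867 CPM in these 2 sets.

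H2BC12, an H2B gene on chromosome 6 (27146418 to 27146798, GRCh38, ENSG00000197903), had the highest level of all members. Its mean over 30 libraries was 35.4 CPM, or 92.9 CPM per kb of annotated exon, and it held 22.2% of the summed CPM of all members. The next highest were H1-2, a linker histone gene, with a mean of 20.5 CPM, and H2AC25, an H2A gene on the long arm of chromosome 1, with 15.7 CPM. These 3 genes held 44.8% of the summed level. Per kb the order was H2BC12 (92.9), H1-2 (31.9), H2AC25 (17.5), H1-4 (14.3), H2BC5 (7.49) and H2BC11 (7.005).

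Members with a transcript ending at a polyA signal were more often above 1 CPM: 13 of 22, against 8 of the 47 others. Their median level was 0.936 CPM per kb against 0.394 in the others. Among the 34 members annotated by coding sequence alone, 4 were above 1 CPM and the median was 0.165 CPM per kb. H2BC12 and H1-2 belong to this last class. These classes come from GENCODE 29, and the annotation used for counting is not known.

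**Figure D1:**
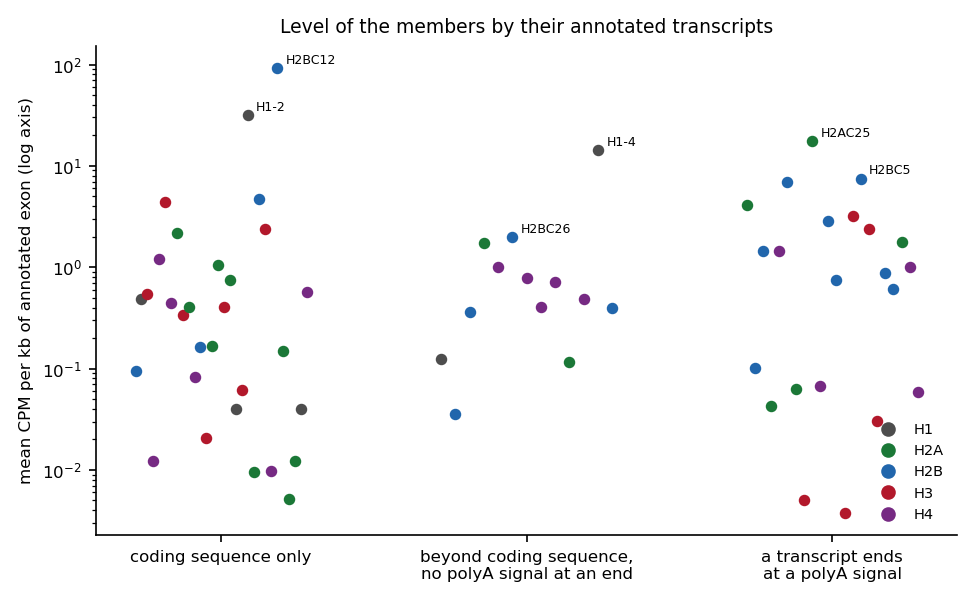
Mean level over 30 libraries of the 65 members with counts, in CPM per kb of annotated exon on a log axis, by what their annotated transcripts hold; each point is 1 gene coloured by family, and the 2 highest of each class are named. H2BC12 and H1-2 stand highest although their annotation holds the coding sequence only, and in the class ending at a polyA signal H2AC25 is highest at 17.5.

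Histone genes of a family share much of their coding sequence, and the headers of the deposited files name uniquely mapped reads, so reads that fit several copies are not in these counts. The pairs H2AC18 and H2AC19, H3C14 and H3C15, and H4C14 and H4C15 are near-identical copies, and their counts are uncertain. The annotated H2BC15 gene spans H2AC16 and, on the other strand, H2AC15, and H3C12 spans H2AC17; the value of the counting program's strand option is not given in the sources used here. Fewer cells in S phase and less histone RNA per cell cannot be told apart in bulk RNA.

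Gene totals were 39017548 to 55446962 counts per library. Of 8 markers of the HEK293 line, all were tested and present in every library, with VIM at 426 to 608 CPM. Of 16 markers of other cells, 6 were tested, among them COL1A1, a collagen gene whose levels are given below. Others, such as HBB, CD3E, KRT14 and KRT1, were at most 0.0249 CPM. The 6 EGFP(R65) libraries held 0 counts of ERCC spike-in sequences and the 24 EGFP(R96) libraries held 10 to 106. RNAs that lack a polyA tail summed to 9.83 to 90.6 CPM in 28 libraries, and reached 303 CPM in EGFP(R96C) replicate 2 and 233 CPM in Arg-tRNA_Cys(GCA) replicate 1. The summed level of all members ranged from 76.0 to 339 CPM over the 30 libraries.

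**Figure D2:**
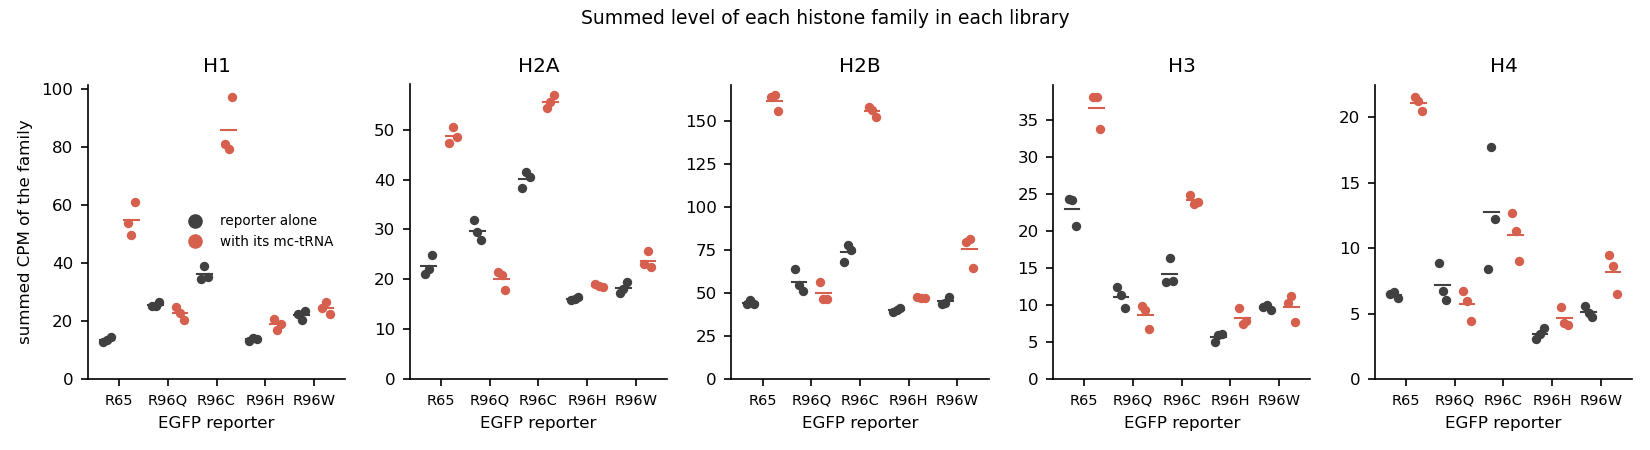
Summed CPM of the members of each histone family (H1, H2A, H2B, H3 and H4; each panel has its own axis from 0) in each library of the 5 reporters alone (dark) and with their mc-tRNA (red); bars are means of 3. H2B is highest, at 161 CPM with Ser-tRNA_Arg(CCG) against 44.4 CPM with EGFP(R65) alone and 155.4 CPM with Arg-tRNA_Cys(GCA) against 73.6 CPM.

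Histone RNA of all 5 families was higher with Ser-tRNA_Arg(CCG), and the summed level was 4.03 times that of the reporter alone in H1 and 3.64 times in H2B. Of the 45 tested members, 32 rose and 1 fell, where 26.6% and 30.7% of all 22321 genes did (edgeR quasi-likelihood test, Benjamini-Hochberg adjusted p under 0.05). Among the 21 members above 1 CPM, 19 rose and 1 fell, against 28.3% and 40.1% of all genes at that level. The median log2 change was 1.69 over the 45 and -0.02 over all genes, and 29 of the 32 rises were larger than 2-fold. The summed level of all members went from 108, 112 and 110 CPM with EGFP(R65) alone to 325, 324 and 320 CPM with the mc-tRNA.

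Linker histone genes differed among themselves. H1-2 was at 9.32, 9.48 and 10.7 CPM with EGFP(R65) alone and 50.1, 45.9 and 57.3 CPM with the mc-tRNA, and rose by 2.38 ± 0.11 (log2 ± SE, adjusted p = 1.48e-18). H1-4 was at 1.96, 3.00 and 2.39 CPM alone and 2.16, 2.28 and 2.06 CPM with it, a log2 difference of -0.17 ± 0.15 (adjusted p = 0.347). The H1-2 groups were far apart while the H1-4 groups overlapped.

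All 9 H2B genes above 1 CPM rose, with no overlap between the groups in any of them. Over all 45 members the groups did not overlap in 34 that were higher and 2 that were lower, where they did not in 66.3% of all genes. H2BC12 was at 18.1, 19.6 and 17.6 CPM alone and 62.2, 67.5 and 64.8 CPM with the mc-tRNA (log2 1.82 ± 0.08, adjusted p = 2.41e-19). H2BC5 was at 2.93, 3.10 and 2.80 and 22.0, 21.4 and 20.4 CPM (log2 2.85 ± 0.15, adjusted p = 1.68e-17). H2BC6 was at 1.28, 1.20 and 1.01 and 11.4, 10.7 and 7.45 CPM (log2 3.08 ± 0.20, adjusted p = 3.66e-15). H2BC5 and H2BC6 are neighbours on chromosome 6 and had the largest rises of the 21 members. H2BC26 went from 2.57, 2.68 and 2.83 to 12.04, 10.1 and 10.3 CPM (log2 2.01 ± 0.15). H2BC18 went from 1.89, 1.5001 and 1.54 to 6.84, 6.99 and 6.34 CPM (log2 2.03 ± 0.21). H2BC11 went from 4.05, 3.98 and 5.38 to 14.2, 14.0 and 15.003 CPM (log2 1.69 ± 0.17). The other three were H2BC15, H2BC21 and H2BC17, with smaller rises. H2BC15 went from 6.26, 6.40 and 4.59 to 15.7, 14.4 and 11.3 CPM (log2 1.27 ± 0.14). H2BC21 went from 5.20, 5.48 and 6.23 to 14.0, 13.6 and 14.2 CPM (log2 1.30 ± 0.11). H2BC17 went from 0.833, 1.13 and 1.03 to 2.27, 2.72 and 2.57 CPM (log2 1.34 ± 0.24). The adjusted p of these 6 genes was at most 1.18e-05.

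All 3 H2A genes above 1 CPM rose. H2AC25 was at 11.8, 12.5 and 16.1 CPM alone and 22.3, 22.9 and 23.8 CPM with the mc-tRNA (log2 0.77 ± 0.11, adjusted p = 1.26e-07). H2AC6 was at 4.80, 4.68 and 4.82 and 8.58, 10.2 and 9.41 CPM (log2 0.98 ± 0.12, adjusted p = 9.89e-09). H2AC11 was at 2.52, 3.18 and 2.25 and 11.2, 11.8 and 10.1 CPM (log2 2.06 ± 0.16, adjusted p = 1.22e-13). In all 3 genes every library with the mc-tRNA was above every library without it.

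H3 genes moved in both directions. H3C10 was at 1.87, 2.28 and 2.09 CPM alone and 7.62, 7.11 and 6.82 CPM with the mc-tRNA (log2 1.79 ± 0.17, adjusted p = 6.15e-11). H3C6 was at 8.85, 9.30 and 4.73 and 20.5, 20.3 and 14.8 CPM (log2 1.28 ± 0.17, adjusted p = 2.35e-07). H3C11 fell, from 12.3, 11.6 and 12.9 to 5.13, 5.50 and 6.95 CPM (log2 -1.07 ± 0.16, adjusted p = 5.19e-06). It was the 1 member that fell with this mc-tRNA and is taken up again below.

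All 4 H4 genes above 1 CPM rose, H4C9 by the largest fold. H4C9 was at 0.518, 0.475 and 0.758 CPM alone and 2.47, 3.05 and 2.61 CPM with the mc-tRNA (log2 2.21 ± 0.23, adjusted p = 3.47e-10). H4C8 was at 3.18, 3.45 and 2.37 and 12.9, 11.9 and 10.8 CPM (log2 1.99 ± 0.23, adjusted p = 1.62e-08). H4C5 was at 0.608, 0.975 and 0.574 and 2.10, 2.36 and 2.23 CPM (log2 1.63 ± 0.32, adjusted p = 5.85e-05). H4C16, the 1 member on chromosome 12, rose least of them, from 0.721, 0.925 and 0.850 to 1.20, 1.2496 and 1.43 CPM (log2 0.64 ± 0.26, adjusted p = 0.0353). Its call was lost without EGFP(R65) replicate 1 (adjusted p = 0.127) or 3 (0.0684) and without mc-tRNA replicate 2 (0.0572) or 3 (0.107).

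The 24 tested members under 1 CPM are given by counts. Of these, 13 rose with Ser-tRNA_Arg(CCG) and none fell, where 26.6% and 30.7% of all 22321 genes did. The shares among genes under 1 CPM alone are not given here. Members at this level can also pass the filter through the group in which they are high. H3C12, an H3 gene on chromosome 6 named after its values were seen, was at 0.225, 0.225 and 0.207 CPM alone and 1.63, 1.95 and 1.79 CPM with the mc-tRNA (log2 3.01 ± 0.35, adjusted p = 4.47e-09). Calls of H1-6, H2BC13, H3C13 and H4C15 were lost when single libraries of the comparison were left out.

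**Figure D3:**
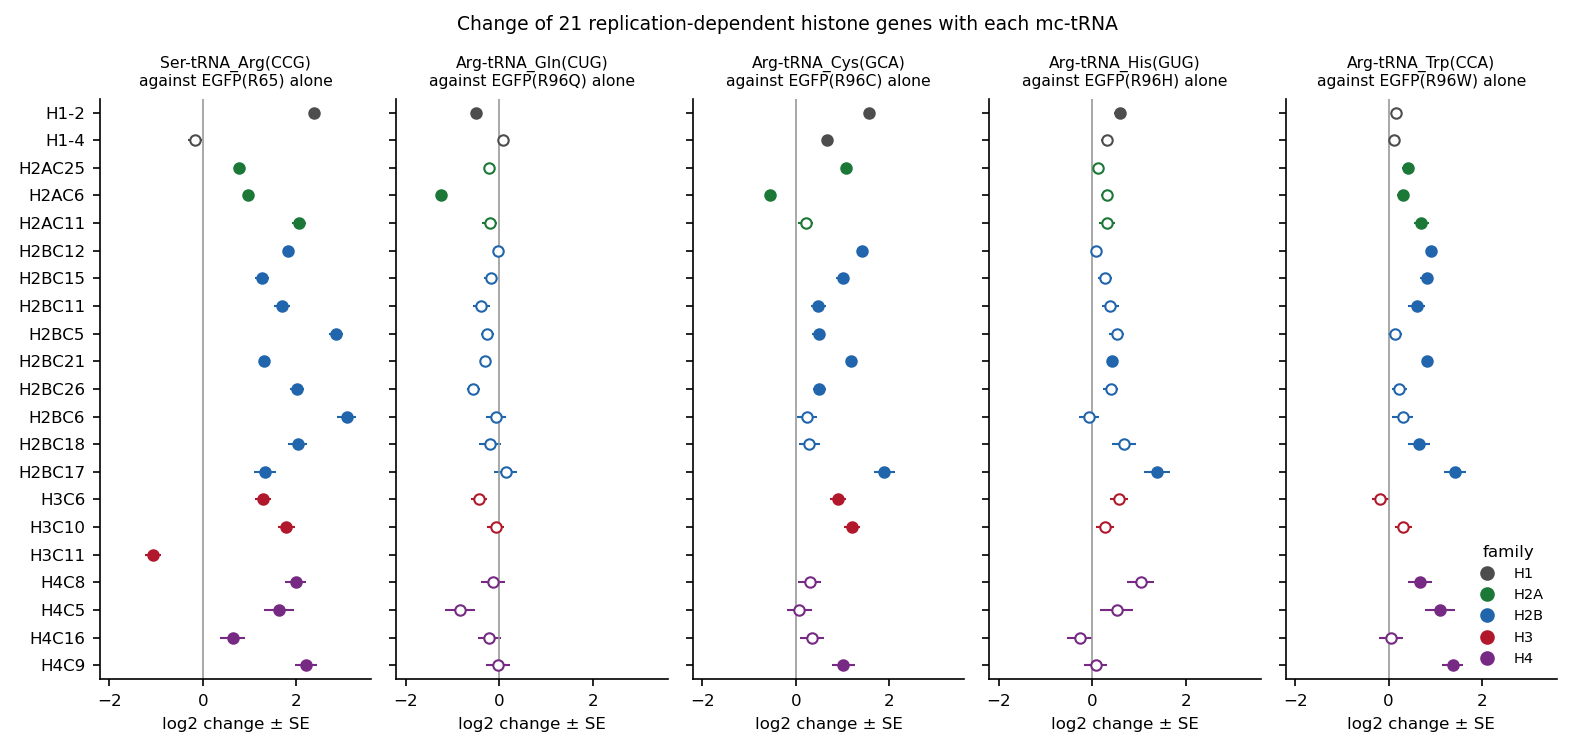
Log2 change ± SE of the 21 members with a mean of at least 1 CPM, in rows by family, with each mc-tRNA against its reporter alone; filled points passed the adjusted p threshold of 0.05. Most points lie to the right of 0 with Ser-tRNA_Arg(CCG), and H3C11 is drawn in that panel alone because it had 4 counts in all 24 EGFP(R96) libraries.

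Arg-tRNA_Cys(GCA) changed the members in both directions. Of the 45 tested, 15 rose and 8 fell, where 30.2% and 30.5% of all genes did. Among the 21 members above 1 CPM, 13 rose and 1 fell, against 38.4% and 35.5% of all genes at that level. The median log2 change was 0.21 over the 45, 0.50 over the 21 and -0.04 over all genes. The summed level of all members was 162, 193 and 176 CPM with EGFP(R96C) alone and 331, 326 and 339 CPM with the mc-tRNA. This comparison depends on the scaling: with library totals in place of TMM factors the median log2 change of all genes moved from -0.04 to -0.59 and 9 members rose and 15 fell, where 69.6% of all genes were called, so the values below are relative to the bulk of genes.

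The groups did not overlap in 15 members that were higher and 6 that were lower, where they did not in 61.8% of all genes. Both abundant H1 genes rose. H1-2 was at 19.4, 23.7 and 17.7 CPM with EGFP(R96C) alone and 56.7, 56.2 and 68.2 CPM with the mc-tRNA (log2 1.58 ± 0.11, adjusted p = 2.89e-15). H1-4 was at 14.8, 15.02 and 17.2 and 23.6, 22.5 and 28.7 CPM (log2 0.67 ± 0.11, adjusted p = 1.60e-06). Groups did not overlap in either gene, but with library totals the H1-4 difference was 0.12 (adjusted p = 0.323).

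In the H2B family the gene with the highest mean and the one with the lowest of the 9 rose most. H2BC12 was at 32.1, 32.5 and 33.3 CPM alone and 86.9, 84.6 and 88.9 CPM with the mc-tRNA (log2 1.41 ± 0.08, adjusted p = 9.87e-18). H2BC17 was at 1.26, 1.52 and 2.01 and 6.11, 6.07 and 5.89 CPM (log2 1.90 ± 0.22, adjusted p = 1.90e-09). H2BC21 was at 4.88, 6.30 and 5.84 and 13.0, 13.6 and 12.1 CPM (log2 1.18 ± 0.11, adjusted p = 5.44e-12). H2BC15 followed them, at about 2-fold. It was at 6.45, 7.42 and 7.64 CPM alone and 14.4, 15.3 and 13.6 CPM with the mc-tRNA (log2 1.01 ± 0.14, adjusted p = 1.21e-07). These 4 rises also passed with library totals.

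Other H2B genes rose relative to the bulk of genes but not with library totals. H2BC5 was at 6.29, 8.51 and 6.60 CPM alone and 10.4, 10.4 and 9.29 CPM with the mc-tRNA (log2 0.50 ± 0.14, adjusted p = 0.00276). H2BC26 was at 5.31, 4.76 and 5.89 and 7.49, 9.20 and 5.92 CPM (log2 0.50 ± 0.14, adjusted p = 0.00256). H2BC11 was at 6.60, 9.85 and 7.18 and 12.1, 10.2 and 10.8 CPM (log2 0.49 ± 0.17, adjusted p = 0.0134). With library totals these differences were -0.05, -0.05 and -0.06. The H2BC11 call did not hold without EGFP(R96C) replicate 1 (adjusted p = 0.080), EGFP(R96C) replicate 3 (0.062) or Arg-tRNA_Cys(GCA) replicate 1 (0.0907), and the H2BC26 call without mc-tRNA replicate 2 (0.108). H2BC6 and H2BC18 did not pass, at log2 0.25 ± 0.21 and 0.29 ± 0.22.

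Among the H2A genes above 1 CPM, 1 rose and 1 fell. H2AC25 was at 16.6, 17.7 and 20.1 CPM alone and 35.7, 37.8 and 41.2 CPM with the mc-tRNA (log2 1.07 ± 0.10, adjusted p = 3.37e-11). H2AC6 fell from 14.4, 12.3 and 13.3 to 9.35, 9.40 and 8.59 CPM (log2 -0.55 ± 0.11, adjusted p = 7.75e-05). H2AC11 was at 3.595, 4.60 and 2.89 and 4.69, 4.40 and 3.71 CPM (log2 0.21 ± 0.16, adjusted p = 0.245). Of these 3 genes, the groups overlapped in H2AC11.

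H3C10 and H3C6, the H3 genes with more than a few counts at this level in the EGFP(R96) libraries, rose. H3C10 was at 2.69, 3.22 and 2.43 CPM alone and 6.85, 5.95 and 6.47 CPM with the mc-tRNA (log2 1.21 ± 0.17, adjusted p = 1.18e-07). H3C6 was at 8.26, 8.36 and 8.34 and 16.1, 15.6 and 15.2 CPM (log2 0.91 ± 0.17, adjusted p = 3.66e-05). With library totals H3C6 was at 0.36 (adjusted p = 0.0552). Of the H4 genes, H4C9 rose from 0.405, 0.536 and 0.772 to 1.21, 1.07 and 1.26 CPM (log2 1.01 ± 0.25, adjusted p = 5.64e-04), and with library totals it was at 0.47 (adjusted p = 0.0954). H4C8, H4C5 and H4C16 did not pass, at log2 0.30 ± 0.25, 0.08 ± 0.27 and 0.35 ± 0.25.

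The other 7 falls were of members under 1 CPM: H2AC12, H2AC20, H3C13, H4C1, H4C2, H4C3 and H4C4, which are named after their values were seen. Of these genes, 6 are annotated without a stem-loop and all 7 without a transcript ending at a polyA signal. Such a transcript is also lacking in 27 of all 45 tested members, and a stem-loop was found in 30 of all 69. Moreover, 5 of the 7 are annotated by coding sequence alone, where neither could be found. EGFP(R96C) replicate 2, the library with 303 CPM of RNAs that lack a polyA tail, was the highest of the 3 in all of them except H4C1. H4C3 was at 0.643, 3.598 and 0.520 CPM alone and 0.472, 0.254 and 0.184 CPM with the mc-tRNA (log2 -2.38 ± 0.52, adjusted p = 2.07e-04), and without that library the difference was -0.99 (adjusted p = 0.0375). H4C4 was at 0.405, 2.61 and 0.755 and 0.540, 0.452 and 0.184 CPM (log2 -1.68 ± 0.55), and without that library at -0.64 (adjusted p = 0.295). H2AC12, H3C13 and H4C2 also lost the call without it (adjusted p = 0.0766, 0.149 and 0.122), and 4 falls in all were left. These calls did not hinge on that library alone. H2AC12, H3C13 and H4C2 lost them without Arg-tRNA_Cys(GCA) replicate 3 as well (adjusted p = 0.0605, 0.119 and 0.0513), and H3C13 with DESeq2 (0.0708). With only the 6 libraries compared, H4C3 and H4C4 were not called (adjusted p = 0.10 and 0.117). The part of unadenylated RNA in these falls was not tested.

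Some of these falls were in genes that share an intergenic stretch with a riser. H2BC12 and H2AC12 start 330 bases apart and point away from each other, and they had log2 changes of 1.41 and -1.35 with Arg-tRNA_Cys(GCA). H2BC21 and H2AC20, 322 bases apart on chromosome 1, had 1.18 and -1.71. In H2AC20 the levels were 0.738, 1.65 and 0.890 CPM alone and 0.540, 0.169 and 0.307 CPM with the mc-tRNA. With Ser-tRNA_Arg(CCG) the same pairs had 1.82 and 0.94, and 1.30 and -0.20. H2BC11 and H2AC11, 291 bases apart, had 0.49 and 0.21 with Arg-tRNA_Cys(GCA) and 1.69 and 2.06 with Ser-tRNA_Arg(CCG). Of the other such pairs with both genes tested, H2AC25 and H2BC26 had 1.07 and 0.50 with Arg-tRNA_Cys(GCA). H2BC4 and H2AC6 had -0.55 and -0.55. H2BC13 and H2AC13 had -0.61 and -0.48, and H3C12 and H2BC17 had -0.03 and 1.90. The differences within pairs were not tested.

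Of 16 markers of other cells 6 were tested. With Arg-tRNA_Cys(GCA) 3 rose and 1 fell, with Ser-tRNA_Arg(CCG) 1 rose and 2 fell, and with Arg-tRNA_Trp(CCA) 1 rose and 1 fell. Of the 8 HEK293 markers, 5 rose and 3 fell with the Ser mc-tRNA, 3 rose and 3 fell with the Cys mc-tRNA, and 2 rose and 3 fell with the Trp mc-tRNA. Outside the EGFP(R96C) groups, the 16 markers of other cells summed to 19.3 to 29.02 CPM. Their summed level was 22.2 to 24.3 CPM with EGFP(R96C) alone and 55.04 to 55.9 CPM with Arg-tRNA_Cys(GCA). COL1A1, a collagen gene, made up most of it, at 18.0 ± 0.84 and 47.1 ± 0.62 CPM, while HBB, CD3E, KRT14 and KRT1 were at or near 0 in every library. Their part in the histone changes was not tested.

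With Arg-tRNA_Trp(CCA), 13 members rose and none fell, where 20.7% and 21.7% of all genes did. At an unadjusted p under 0.05 there were 2 lower, where 25.6% of all genes were, and DESeq2 called 11 higher and 0 lower, and 20.2% of the 45783 genes with counts. Among the 21 members above 1 CPM, 12 rose and 0 fell, against 27.4% and 26.7% of all genes at that level. Their median log2 change was 0.40. With library totals the median of all genes was -0.16, and 9 members rose and 1 fell, where 45.6% of all genes were called. The summed level of all members was 98.6, 97.6 and 105 CPM with EGFP(R96W) alone and between 124 and 153.5 CPM with the mc-tRNA. Replicate 3 with the mc-tRNA was the lowest of its group in most of these genes.

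H2B genes made up 6 of the 13 rises. H2BC12 was at 18.6, 19.6 and 23.0 CPM with EGFP(R96W) alone and 39.5, 41.2 and 33.1 CPM with the mc-tRNA (log2 0.90 ± 0.08, adjusted p = 2.36e-11). H2BC17 was at 0.829, 0.860 and 0.846 and 2.79, 2.45 and 1.55 CPM (log2 1.42 ± 0.24, adjusted p = 1.17e-05). H2BC21 was at 3.34, 3.32 and 3.25 and 6.00, 6.60 and 4.99 CPM (log2 0.83 ± 0.11, adjusted p = 2.84e-07). None of these groups overlapped. Over the 45 members they did not overlap in 13 that were higher and 3 that were lower, where they did not in 47.8% of all genes. H2BC15 was at 6.13, 5.94 and 5.83 and 11.2, 11.1 and 9.23 CPM (log2 0.82 ± 0.14, adjusted p = 1.67e-05). H2BC11 was at 4.55, 4.42 and 4.96 and 8.27, 7.32 and 5.49 CPM (log2 0.60 ± 0.18, adjusted p = 0.00655). H2BC18 was at 1.27, 0.960 and 0.892 and 2.07, 1.48 and 1.39 CPM (log2 0.65 ± 0.24, adjusted p = 0.0252). Without mc-tRNA replicate 1, H2BC11 and H2BC18 were no longer called (adjusted p = 0.0561 and 0.174), nor was H2BC18 without EGFP(R96W) replicate 2 (0.0857) or 3 (0.0936). H2BC5 and H2BC26, which rose with the Ser and Cys mc-tRNAs, did not pass here, at log2 0.14 ± 0.15 and 0.23 ± 0.15.

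The remaining rises were in H2A and H4 genes and 1 H3 gene. H4C9 was at 0.667, 0.780 and 0.869 CPM alone and 1.94, 1.89 and 2.16 CPM with the mc-tRNA (log2 1.37 ± 0.22, adjusted p = 4.95e-06). H4C5 was at 0.788, 0.580 and 0.869 and 1.84, 2.02 and 0.911 CPM (log2 1.10 ± 0.32, adjusted p = 0.00642). H4C8 was at 1.64, 1.70 and 1.12 and 3.04, 2.67 and 1.46 CPM (log2 0.67 ± 0.26, adjusted p = 0.0391). Groups overlapped in H4C8 and not in H4C9 or H4C5. H2AC11 was at 2.93, 2.92 and 2.88 and 4.93, 5.28 and 3.99 CPM (log2 0.70 ± 0.16, adjusted p = 4.01e-04). H2AC25 was at 7.56, 8.70 and 10.2 and 10.3, 12.5 and 12.1 CPM (log2 0.40 ± 0.11, adjusted p = 0.00344). H2AC6 was at 4.91, 4.58 and 4.28 and 6.10, 6.26 and 4.62 CPM (log2 0.30 ± 0.12, adjusted p = 0.0441). In H2AC6 the groups overlapped. The linker histone gene H1-2 was at 11.8, 10.6 and 11.3 and 11.5, 14.7 and 11.3 CPM (log2 0.15 ± 0.11, adjusted p = 0.276). H3C12 also rose, from 0.121, 0.120 and 0.297 to 0.498, 0.434 and 0.159 CPM. H3C12, H2AC6, H4C8 and H4C5 lost the call when single libraries were left out, with adjusted p up to 0.209. H3C12 and H2AC6 also lost it with library totals (0.0694 and 0.257), no filter (0.0979 and 0.0757), only the 6 libraries compared (0.125 and 0.0962) and DESeq2 (0.0624 and 0.0526), and H3C12 with the replicate block (0.0897). H4C8 and H2BC18 lost it with library totals (0.0881 and 0.0742). Without mc-tRNA replicate 1, 8 rises were left, where 35.3% of all genes were called.

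Arg-tRNA_Gln(CUG) changed few genes of any kind. Of the 45 tested members 2 fell and none rose, where 0.278% and 0.273% of all genes did. At an unadjusted p under 0.05, 13 were lower and 1 was higher, where 4.85% and 5.32% of all genes were. DESeq2 called 3 lower and 0 higher, and 0.533% of the 45783 genes with counts. Both are above 1 CPM, where 0.306% of all genes fell and 0.373% rose. H2AC6 fell from 12.4, 10.6 and 9.31 CPM with EGFP(R96Q) alone to 4.96, 4.36 and 4.31 CPM with the mc-tRNA (log2 -1.25 ± 0.12, adjusted p = 7.00e-09), and the groups were well apart. H1-2 fell from 11.7, 12.9 and 12.7 to 9.29, 9.11 and 8.18 CPM (log2 -0.49 ± 0.11, adjusted p = 0.0258). The H1-2 call was lost without EGFP(R96Q) replicate 2 (adjusted p = 0.158) or 3 (0.0949) and without mc-tRNA replicate 1 (0.0549), 2 (0.0712) or 3 (0.195), and with the replicate block (0.0794). The median log2 change was -0.33 over the 45 members and 0.00 over all genes. Groups did not overlap in 12 members that were lower and 1 that was higher, where they did not in 16.2% of all genes. H2BC12, the member with the highest level, overlapped, at 26.3, 23.6 and 22.2 CPM alone and 25.7, 21.4 and 23.5 CPM with the mc-tRNA (log2 -0.03 ± 0.08, adjusted p = 0.954).

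With Arg-tRNA_His(GUG), 3 members rose and none fell, where 1.56% and 0.95% of all genes did. At an unadjusted p under 0.05, 13 were higher and 0 lower, where 8.57% and 7.69% of all genes were. DESeq2 called 6 higher and 0 lower, and 1.96% of the genes with counts. All 3 are above 1 CPM, where 2.03% of all genes rose and 1.34% fell. H1-2 rose from 6.72, 7.41 and 7.72 CPM with EGFP(R96H) alone to 12.2, 9.62 and 11.02 CPM with the mc-tRNA (log2 0.59 ± 0.11, adjusted p = 0.00421). H2BC17 rose from 0.468, 0.421 and 0.371 to 1.33, 0.996 and 0.990 CPM (log2 1.38 ± 0.28, adjusted p = 0.00563). H2BC21 rose from 2.45, 2.74 and 2.69 to 3.54, 3.59 and 3.46 CPM (log2 0.43 ± 0.12, adjusted p = 0.0432). Groups did not overlap in these 3 genes, nor in 15 others that were higher, 18 in all and 0 lower, where they did not in 27% of all genes. The median log2 change was 0.43 over the 45 members and 0.00 over all genes. All 3 calls were lost without mc-tRNA replicate 1 (adjusted p = 0.0765, 0.0769 and 0.208). H2BC17 was also lost without EGFP(R96H) replicate 3 (0.0572), and H2BC21 without any 1 of the 6 libraries (0.065 to 0.208).

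**Figure D4:**
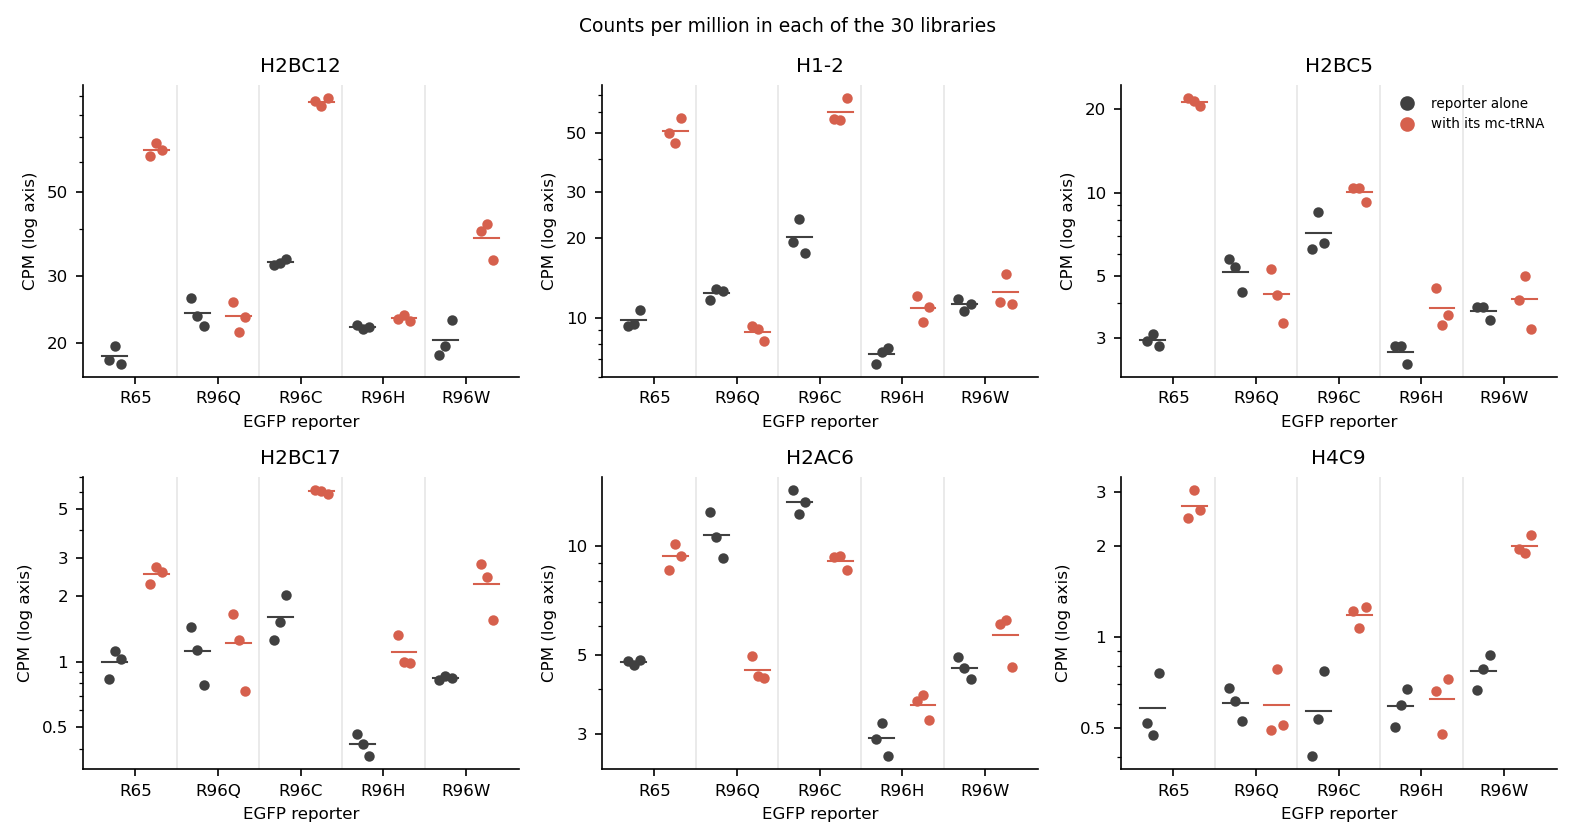
CPM on log axes in each of the 30 libraries for 6 members, with reporters alone in dark and with their mc-tRNA in red; bars are means of 3. H2BC12 rose with the Ser, Cys and Trp mc-tRNAs and was not called with the Gln or His mc-tRNA, while H2AC6 rose with the Ser and Trp mc-tRNAs and fell with the Gln and Cys mc-tRNAs.

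The 5 effects were then compared with each other in the same fit. They differed in 33 of the 45 members, where they did in 72.5% of all genes. H1-2 (adjusted p = 5.42e-17) and H2BC12 (4.64e-17) had the smallest p-values, and H4C16 (0.114) was among the 12 that did not pass. H2AC6 was higher with the Ser and Trp mc-tRNAs and lower with the Gln and Cys mc-tRNAs (adjusted p = 3.56e-13). H1-2, lower with the Gln mc-tRNA, and H3C13, lower with the Cys mc-tRNA, were also called in both directions.

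The Cys effect was below the Ser effect in 29 members and above it in 1, where it was in 25.3% and 31.3% of all genes. Under library totals the median difference of all genes moved from 0.03 to -0.48, and 61.5% of them were called. The differences below, with TMM factors, are therefore relative to the bulk of genes. In H2BC6 the difference was -2.83 ± 0.29 on the log2 scale (adjusted p = 2.04e-10), in H2BC5 -2.36 ± 0.21 (adjusted p = 3.72e-12) and in H2AC11 -1.85 ± 0.22 (adjusted p = 5.87e-09). H1-4 was the exception, at 0.84 ± 0.19 (adjusted p = 2.14e-04). For H2BC21 the 2 effects differed by -0.12 ± 0.15 (adjusted p = 0.515), which is within the error, and for H2BC17 by 0.56 ± 0.33 (adjusted p = 0.143).

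The Trp effect was below the Ser effect in 21 members and above it in none, where it was in 19.5% and 25.8% of all genes. At an unadjusted p under 0.05, 23 were below and 0 above, where 22.5% and 29% of all genes were. DESeq2 called 22 below and 0 above, and 21.4% of the genes with counts. The largest differences among the named genes were in H2BC6, at -2.78 ± 0.30 (adjusted p = 2.04e-09), and H2BC5, at -2.72 ± 0.21 (adjusted p = 1.73e-12). For H2BC17 the difference was 0.08 ± 0.34 (adjusted p = 0.877).

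The Cys effect was above the Trp effect in 7 members and below it in 2, where it was in 23.7% and 20% of all genes. With library totals it was above in 2 and below in 10, where the median difference of all genes was -0.42 and 51.3% of them were called. H1-2 had a difference of 1.42 ± 0.15 (adjusted p = 1.53e-09), H3C6 one of 1.09 ± 0.25 (adjusted p = 5.98e-04) and H2BC12 one of 0.51 ± 0.11 (adjusted p = 2.28e-04). H2AC6 was lower, at -0.85 ± 0.17 (adjusted p = 6.44e-05).

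The reporters also differed in the absence of any mc-tRNA. Among the 4 EGFP(R96) reporters, 32 of the 45 members differed, where 54.7% of all genes did. With the replicate block these were 23 members and 34.2% of all genes. The block has its own terms for each reporter, so that fit compares the reporters at replicate 1 and not at their group means. The drop is therefore not a check of the same difference. H2AC6 varied most clearly among the named genes, with 10.8 ± 1.57, 13.3 ± 1.01, 2.92 ± 0.310 and 4.59 ± 0.319 CPM for the Q, C, H and W reporters (adjusted p = 6.03e-16). H1-2 was at 12.4 ± 0.616, 20.3 ± 3.10, 7.28 ± 0.512 and 11.3 ± 0.617 CPM in the same order (adjusted p = 4.43e-11). EGFP(R96C) was highest and EGFP(R96H) lowest in both. The summed level of all members followed the same order at its ends, with 130 ± 10.8, 177 ± 15.4, 79.1 ± 2.76 and 100 ± 4.02 CPM.

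Some members separated the EGFP(R65) libraries from all others. They are given here without a test because reporter and library batch cannot be told apart. H3C11 (27871905 to 27872315 on chromosome 6) was at 5.13 to 12.9 CPM in the 6 EGFP(R65) libraries, with 2317 counts in all. In the 24 EGFP(R96) libraries it had 4 counts, at most 1 in a library. H1-3 was at 0.825 to 1.31 CPM in the first and 0.0202 to 0.236 CPM in the second, and H1-5 was at 0.0721 to 0.230 CPM (33 counts) and 0 to 0.0202 CPM (2 counts). H1-4 went the other way, with 1.96 to 3.00 CPM in the EGFP(R65) libraries and 5.85 to 28.7 CPM in the others. In none of H3C11, H1-3, H1-5 and H1-4 did the 2 sets of libraries overlap. The share of all genes without such overlap was not computed, so nothing is read from how many members did this.

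Of the genes beside H3C11, H1-5 showed the same gap. H4C13, the nearest, had 1 count in the EGFP(R65) libraries and 4 in the others. H3C12 was at 0.206 to 1.95 CPM and 0.0766 to 0.498 CPM, and H2BC17 at 0.833 to 2.72 CPM and 0.371 to 6.11 CPM, so both overlapped.

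**Figure D5:**
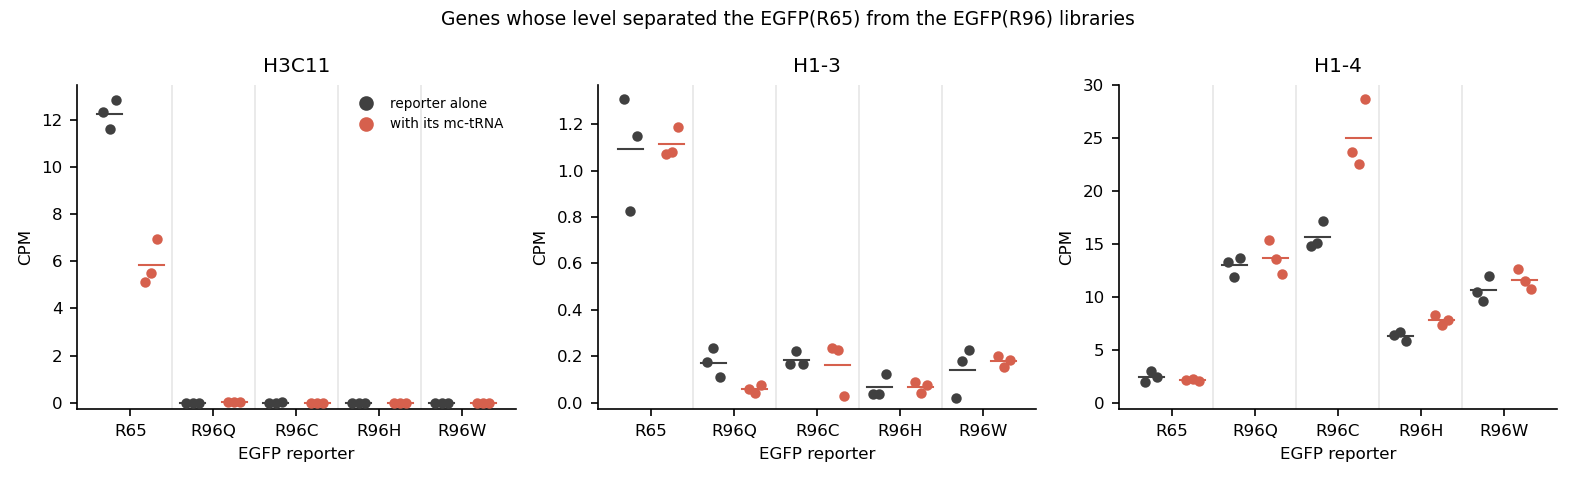
CPM in each of the 30 libraries for H3C11, H1-3 and H1-4, with reporters alone in dark and with their mc-tRNA in red; bars are means of 3 and each axis starts at 0. H3C11 and H1-3 are seen in the EGFP(R65) libraries and at or near 0 in the others, while H1-4 is lowest in the EGFP(R65) libraries, at 1.96 to 3.00 CPM.

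SLBP, whose protein binds the histone stem-loop, did not follow the histone genes in every comparison. It was at 86.9, 89.9 and 81.3 CPM with EGFP(R65) alone and 94.1, 92.2 and 87.5 CPM with Ser-tRNA_Arg(CCG) (log2 0.09 ± 0.06, adjusted p = 0.198), where the members rose most. It was at 72.6, 70.3 and 72.5 CPM with EGFP(R96C) alone and 246, 252 and 249 CPM with Arg-tRNA_Cys(GCA) (log2 1.79 ± 0.06, adjusted p = 9.39e-25). With Arg-tRNA_Trp(CCA) it rose from 69.1, 71.8 and 68.9 CPM to 116, 120 and 102 CPM (log2 0.69 ± 0.06, adjusted p = 3.31e-12). The Gln and His mc-tRNAs left it at log2 0.06 ± 0.06 and 0.05 ± 0.06 (adjusted p = 0.821 and 0.686).

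The 38 genes of histone mRNA processing and decay were all tested. With Ser-tRNA_Arg(CCG) 9 rose and 11 fell, where 26.6% and 30.7% of all genes did, with a median log2 of 0.05. LSM10 and LSM11, which belong to the U7 snRNP that cuts histone pre-mRNA after the stem-loop, fell from 16.6 ± 1.20 to 7.91 ± 1.55 CPM (log2 -1.07 ± 0.10) and from 60.5 ± 3.95 to 29.96 ± 0.95 CPM (log2 -1.02 ± 0.08). CSTF3, a subunit of the cleavage stimulation factor used at polyA signals, rose from 59.5 ± 2.22 to 112 ± 6.495 CPM, and CSTF2 of the same complex fell from 34.3 ± 1.19 to 20.04 ± 0.495 CPM. With Arg-tRNA_Cys(GCA) 20 rose and 8 fell (30.2% and 30.5% of all genes), among them ZNF473, a U7 snRNP-associated protein, to 315 ± 27.4 CPM (log2 2.52), and PAPOLA, a polyA polymerase, from 271 ± 5.18 to 698 ± 65.5 CPM. With Arg-tRNA_Trp(CCA) 16 rose and 1 fell (20.7% and 21.7% of all genes), ZNF473 from 54.4 ± 3.04 to 101 ± 22.8 CPM. With Arg-tRNA_His(GUG) 2 rose, CSTF3 and SRRT, and with Arg-tRNA_Gln(CUG) none passed.

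Replication-independent histone genes make polyadenylated mRNA outside S phase as well. Of 13 tested, 2 rose and 5 fell with Ser-tRNA_Arg(CCG), where 26.6% and 30.7% of all genes did. H2AZ2, an H2A.Z gene, fell from 70.1 ± 1.51 to 32.9 ± 1.13 CPM (log2 -1.09 ± 0.06), and H3-3B, an H3.3 gene, rose from 347 ± 12.05 to 455 ± 11.03 CPM (log2 0.39 ± 0.06). With Arg-tRNA_Cys(GCA) 7 rose and 5 fell (30.2% and 30.5% of all genes), H3-3B by 1.15 ± 0.06. With Arg-tRNA_Trp(CCA) 3 rose and 3 fell (20.7% and 21.7% of all genes), H2AX by 0.63 ± 0.12.

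Of 45 S phase genes, 12 rose and 22 fell with Ser-tRNA_Arg(CCG), where 26.6% and 30.7% of all genes did. RRM2, a ribonucleotide reductase subunit, fell from 164 ± 9.04 to 35.7 ± 0.06 CPM (log2 -2.203 ± 0.06). With Arg-tRNA_Cys(GCA) 21 rose and 14 fell (30.2% and 30.5% of all genes), among them the replication licensing gene CDC6, from 135.03 ± 10.53 to 431 ± 11.4 CPM. With Arg-tRNA_Trp(CCA) 24 rose and 6 fell (20.7% and 21.7% of all genes), CDC6 from 142.3 ± 6.04 to 301 ± 51.1 CPM. The Gln and His mc-tRNAs changed 1 each, RRM2 by 0.24 ± 0.06 and LIG1 by -0.20 ± 0.05.

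Of 26 histone chaperone and assembly genes, 10 rose and 11 fell with the Ser mc-tRNA, where 26.6% and 30.7% of all genes did. With the Cys mc-tRNA 14 rose and 7 fell (30.2% and 30.5% of all genes), and with the Trp mc-tRNA 12 rose and 4 fell (20.7% and 21.7%). ASF1B, a chaperone of H3 and H4, rose from 49.4 ± 6.24 to 110 ± 9.03 CPM with Ser-tRNA_Arg(CCG), while CHAF1B of chromatin assembly factor 1 fell from 101 ± 0.93 to 57.2 ± 3.44 CPM. With Arg-tRNA_Trp(CCA) CHAF1B rose from 70.5 ± 1.61 to 105 ± 15.6 CPM. Of the RNAs that lack a polyA tail, 12 of 31 were tested: RNU6-1 rose with the Ser and Trp mc-tRNAs and RNVU1-7 fell with the Cys mc-tRNA. RNVU1-7 was at 0.381, 2.37 and 0.185 CPM with EGFP(R96C) alone, and replicate 2 was the highest.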

How the data were processed

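HEK293 polyA RNA was measured in 30 libraries of 10 groups. The authors deposited whole-number counts of reads per gene, made with STAR, SAMtools and featureCounts on hg38, per the submitters' processing notes. For versions, annotation and strand setting: not given in the sources used here. ERCC sequences were left out of library totals. Gene totals were 39017548 to 55446962 counts, at which 3 counts are 0.0541 to 0.0769 CPM; such limits cover counting error only.

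Members were matched by Ensembl ID (65) or older names (4). The main test was edgeR 4.0.16's, run in R 4.3.3 (filterByExpr, TMM, quasi-likelihood test, 1 fit of all 10 groups, 20 residual degrees of freedom). Benjamini-Hochberg adjustment ran over 22321 genes with a threshold of 0.05. Replicates are called independent in the labels, with no further detail, so p-values measure the spread between these samples. The fit was also run on simulated data as a self-test, whose outcome is not reported here. Named genes were the 21 members with a mean of at least 1 CPM, plus any described as chosen after their values were seen. Members and gene lists were chosen with earlier results of these data known. Alternatives were DESeq2 1.42.0, library totals, no filter, a replicate block, fewer libraries and leaving out each library. Transcript ends come from GENCODE 29 and promoters from RefSeq. Replicate numbers did not pair the samples. Results of some genes on the lists are not reported here.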

Additional observations from a re-analysis of the deposited data

Results flagged for a closer look

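The effects of the 5 mc-tRNAs differed between reporters, by the F-test of that difference in edgeR, in 19 of the 21 members with a mean of at least 1 CPM. In the H1 family the adjusted p was 5.42e-17 for H1-2 and 0.000798 for H1-4. In the H2A family it was 3.56e-13 for H2AC6, 3.48e-10 for H2AC11 and 1.09e-08 for H2AC25. In the H2B family it was 4.64e-17 for H2BC12, 2.06e-14 for H2BC5, 1.47e-11 for H2BC26, 4.78e-12 for H2BC6 and 1.04e-10 for H2BC21. It was 4.14e-07 for H2BC11, 5.01e-07 for H2BC15, 1.29e-06 for H2BC18 and 0.000345 for H2BC17. Among H3 genes it was 9.97e-08 for H3C10 and 1.16e-06 for H3C6. Among H4 genes it was 1.07e-06 for H4C9, 3.29e-05 for H4C8 and 0.00014 for H4C5. The same test passed in 33 of the 45 tested members and in 72.5% of all genes, which are close to each other. The share among genes with a mean of at least 1 CPM is not given here, so nothing is read from the 19 of 21.

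ERCC spike-in sequences, which no comparison used, reached 106 counts in an EGFP(R96) library and 0 in the 6 EGFP(R65) libraries.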

How the results depend on the processing

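Of the alternatives to the log2 changes of single members, 2281 kept direction and side of the threshold, 79 lost a call, 40 gained one and 83, called in neither fit, changed sign (13 of them with library totals). Of the called changes 3 changed sign: H2BC26 (-0.049), H2BC5 (-0.050) and H2BC11 (-0.057), with Arg-tRNA_Cys(GCA) and library totals, under which the median of all genes itself moved to -0.59. The 2 calls with Arg-tRNA_Gln(CUG) became 4 with no filter on low counts and 1 to 2 when single libraries were left out. The share of all genes called went from 0.551% to 0.428% and to 0.196% to 0.405% in these. The 3 with Arg-tRNA_His(GUG) became 5 with no filter, 7 with only the 6 libraries compared, 6 with DESeq2 and 0 to 3 when single libraries were left out. The share of all genes called there was 2.51%, and 1.59%, 9.86% and 1.96% under the first 3 of these. It was 0.23% to 2.76% when single libraries were left out. The 13 with Arg-tRNA_Trp(CCA) became 8 to 14, the 33 with Ser-tRNA_Arg(CCG) 31 to 33 and the 23 with Arg-tRNA_Cys(GCA) 19 to 25 when single libraries were left out. In the same order, 35.3% to 38.9%, 50.9% to 53.9% and 55.2% to 57.3% of all genes were then called. The 9 differences between the Cys and Trp effects became 14 with no filter, 6 above and 8 below. The share of all genes called was 43.7% in the main fit and 20.6% with no filter. The causes were not tested. Leaving out EGFP(R96C) replicate 2 in the tests over several groups was chosen after seeing the data.

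Replicate numbers did not pair the samples: same-numbered samples had correlations of -0.077 to 0.140, over 0.1 in 4 of 15 pairs. With the replicate block the calls were 34 (Ser), 1 (Gln), 23 (Cys), 6 (His) and 12 (Trp). The shares of all genes called were then 58.2%, 0.878%, 60.8%, 4.78% and 43.8%. Calls among the 4 EGFP(R96) reporters went from 32 to 23, as the share of all genes called went from 54.7% to 34.2%. For this test the block fit compares the reporters at replicate 1 and not at their group means, so the counts do not answer the same question.

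With library totals the summed level of all members was 112.7 CPM with EGFP(R65), 144.8 with EGFP(R96Q), 105.0 with EGFP(R96W) and 240.3 with Arg-tRNA_Cys(GCA). With Arg-tRNA_Cys(GCA) the sums of H1, H2A, H2B, H3 and H4 were then 62.2, 40.2, 112.4, 17.5 and 7.95 CPM. The other sums that moved by more than 1 SD were H1 (28.5) and H2A (33.1) with EGFP(R96Q), H2A with EGFP(R96C) (42.4) and EGFP(R96H) (16.6), H2B with EGFP(R65) (45.5) and Arg-tRNA_His(GUG) (48.0), and H3 with EGFP(R96W) (10.1). With library totals, EGFP(R96C) alone had sums of 38.2 (H1), 42.4 (H2A), 77.7 (H2B), 15.0003 (H3) and 13.5 CPM (H4). Its sum over all members was 186.8 CPM, against 240.3 CPM with Arg-tRNA_Cys(GCA). The H2A sum with this mc-tRNA was higher under TMM factors (55.6 against 40.1 CPM) and lower with library totals (40.2 against 42.4 CPM). These sums were not tested. A level of 3 counts is 0.0541 to 0.0769 CPM, which limits what can be said of members with few counts.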
